A study of Mus musculus with 4 samples.

Results

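Cycling cardiac macrophages were described here: droplets from sorted heart phagocytes that carried the C1q complement genes of macrophages together with transcripts of DNA replication and mitosis. A barcode was a member when its mitochondrial share was under 10%, it held fewer than 30000 UMIs (unique transcript molecules) with more than 500 but fewer than 7000 genes, its summed C1qa, C1qb and C1qc reached 10 UMIs per 10000, and at least 5 of 10 cycle genes had 1 or more UMI. The 10 genes were Mki67, Top2a, Birc5, Cdk1, Nusap1, Tpx2, Ube2c, Pclaf, Rrm2 and Cdca8. This gave 248 cells out of 13935 macrophages that passed the C1q limit, 17312 barcodes that passed the filters and 27968 deposited barcodes. The remaining 13687 C1q-positive cells are called non-cycling. Members were thus chosen on measured values of these same libraries, so the levels of the cycle genes and of C1q in them are a description of the choice.

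The study set out to learn what chemotherapy that damages DNA does to macrophages in the mouse heart. Adult mice received carboplatin, a platinum drug that crosslinks DNA, at 45 mg/kg into the peritoneum, or PBS, 2 times a week for 2 weeks, and then recovered for 4 weeks. All mice then carried a minipump under the skin for 7 days, which delivered angiotensin II at 1.5 mg/kg per day with PE at 50 mg/kg per day, called AngII/PE in what follows, or saline. The 4 groups were carboplatin then AngII/PE, PBS then AngII/PE, carboplatin then saline, and PBS then saline. Each group was 1 library that pooled the hearts of 5 mice of mixed sex, sorted for CD64+ cells within the CD45+ CD11b+ Ly6G-negative, Ly6C-low gate, so strongly Ly6C-positive monocytes were outside the sort. With 1 library per group there was no replicate check: no p-value is given, and the 95% intervals in parentheses cover counting error only.

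Tissue macrophages are maintained in part by division in place and in part by monocytes that arrive from blood and settle. In the mouse heart, Timd4, Lyve1 and Folr2 mark long-resident macrophages, whereas the chemokine receptor Ccr2 marks cells of recent monocyte descent, many of them high in MHC class II. A dividing cell first loads replication origins and makes DNA in S phase, then builds a spindle and divides in G2 and M phase. The genes of these steps are switched on in order by E2F factors and later by the MuvB, B-Myb and FoxM1 proteins, which act at CHR elements in promoters.

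Members numbered 136 of 5128 macrophages in carboplatin AngII/PE hearts, 46 of 3157 in PBS AngII/PE hearts, 41 of 2399 in carboplatin saline hearts and 25 of 3251 in PBS saline hearts. The cycling share was therefore 2.65% (2.23 to 3.13) in carboplatin AngII/PE, 1.46% (1.07 to 1.94) in PBS AngII/PE, 1.71% (1.23 to 2.31) in carboplatin saline and 0.769% (0.498 to 1.13) in PBS saline. The highest share was in the library that had both treatments and the lowest in the library that had neither. The carboplatin share was 2.22 times the PBS share under saline (1.36 to 3.64) and 1.82 times under AngII/PE (1.31 to 2.54). The AngII/PE share was 1.89 times the saline share after PBS (1.17 to 3.08) and 1.55 times after carboplatin (1.10 to 2.19). These 4 ratios share libraries, so they are not independent of each other.

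Both ratios taken against PBS saline rested on the male-called cells of that library. Each library held both sexes, so cells were called female by Xist RNA without Y-linked RNA and male by the reverse. The cycling share among male-called cells was 2.74% in carboplatin AngII/PE, 1.38% in PBS AngII/PE, 2.46% in carboplatin saline and 0.246% in PBS saline, where 3 of 1218 male-called cells were cycling. Among female-called cells it was 2.15% in carboplatin AngII/PE, 1.40% in PBS AngII/PE, 1.31% in carboplatin saline and 1.21% in PBS saline. The carboplatin to PBS ratio under saline was hence 9.98 in male-called cells (3.00 to 33.2) and 1.08 in female-called cells (0.509 to 2.28). Likewise the AngII/PE to saline ratio after PBS was 5.60 in male-called (1.69 to 18.5) and 1.15 in female-called cells (0.526 to 2.53). The carboplatin to PBS ratio under AngII/PE was 1.99 in male-called (1.25 to 3.17) and 1.54 in female-called cells (0.804 to 2.96). The AngII/PE to saline ratio after carboplatin was 1.12 in male-called (0.686 to 1.82) and 1.65 in female-called cells (0.896 to 3.04). How many mice gave the cells of each sex in a pool was not given, and differences between mice cannot be told apart from the treatments.

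**Figure D1:**
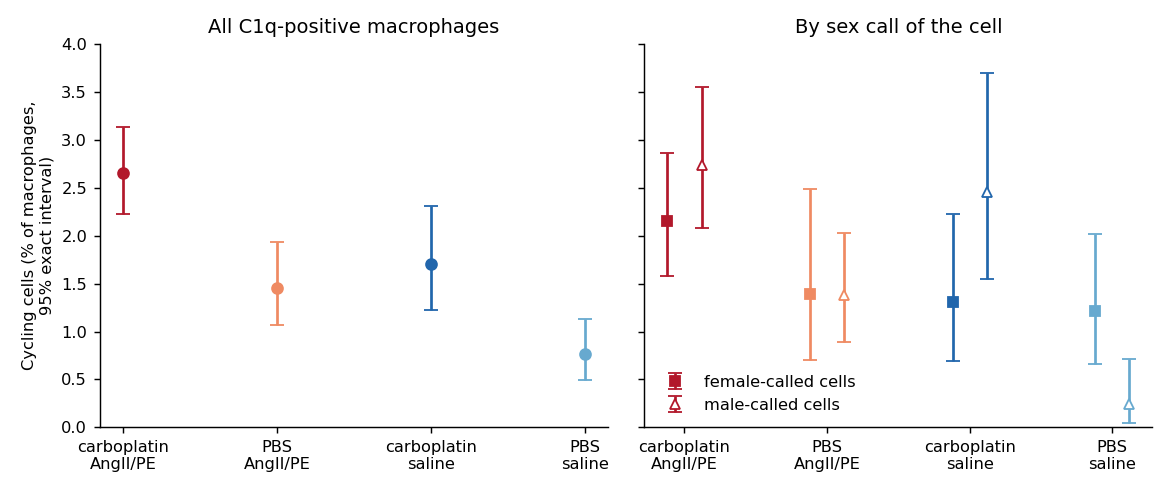
Cycling cells as a percentage of C1q-positive macrophages (y axis) in the 4 libraries, for all macrophages (left) and by the sex call of the cell (right; filled squares female, open triangles male), with exact 95% intervals for counting error. The overall shares run from 2.65% in carboplatin AngII/PE to 0.769% in PBS saline, and the male-called cells of PBS saline stand lowest at 0.246%.

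Members carried more RNA than the other macrophages. Their median UMI number was 19610.5 in carboplatin AngII/PE, 18181 in PBS AngII/PE, 21365 in carboplatin saline and 18551 in PBS saline, whereas non-cycling cells had 12619 in carboplatin AngII/PE, 12696 in PBS AngII/PE, 12839.5 in carboplatin saline and 11846 in PBS saline. Since a gene is found more readily in a deep cell, part of this gap can come from the rule itself; how much was not tested. The upper limit on UMIs also removed cells that met every other condition. Among C1q-positive barcodes with 30000 UMIs or more, 91 of 371 met the cycle condition in carboplatin AngII/PE, 24 of 157 in PBS AngII/PE, 37 of 313 in carboplatin saline and 24 of 213 in PBS saline.

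Just inside the rule, exactly 5 cycle genes were found in 25 members of carboplatin AngII/PE, 10 of PBS AngII/PE, 7 of carboplatin saline and 9 of PBS saline. Just outside it, exactly 4 were found in 35 C1q-positive cells of carboplatin AngII/PE, 12 of PBS AngII/PE, 6 of carboplatin saline and 5 of PBS saline. All 10 genes were found in 29 members of carboplatin AngII/PE, 8 of PBS AngII/PE, 8 of carboplatin saline and 4 of PBS saline. C1q lay under 20 UMIs per 10000 in 10 members. A further 56 barcodes had at least 5 cycle genes but missed the C1q limit, 11 of them at 5 to 10 UMIs per 10000.

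The macrophage label was checked against identity genes that the rule did not use, in cells thinned to 5000 UMIs. Endothelial cells were set beside them as a background, which can hold free RNA and transcripts of their own. Endothelial cells were barcodes that passed the filters, missed the C1q limit and held at least 3 of 8 endothelial markers. The C1q limit left out endothelial barcodes with much macrophage RNA, so their shares can understate free RNA. Adgre1, the F4/80 antigen, had a UMI in 86.6% of members of carboplatin AngII/PE, 82.9% of PBS AngII/PE, 82.9% of carboplatin saline and 73.9% of PBS saline, against 3.83% to 6.17% of endothelial cells over the libraries. Fcgr1, the sorted CD64, had a UMI in 59.8% of members of carboplatin AngII/PE, 46.3% of PBS AngII/PE, 46.3% of carboplatin saline and 34.8% of PBS saline, against 1.28% to 2.47% of endothelial cells. Mertk did not set the cells apart, with 44.1% of members of carboplatin AngII/PE, 48.8% of PBS AngII/PE, 34.1% of carboplatin saline and 47.8% of PBS saline, against 29.2% to 45.1% of endothelial cells. Ly6c2, which marks classical monocytes, had 1 UMI in carboplatin AngII/PE members and none in the members of PBS AngII/PE, carboplatin saline or PBS saline. Transcripts of other cells were few but uneven. Members with 10 or more UMIs per 10000 of an endothelial, fibroblast, cardiomyocyte, mural, B cell, T and NK cell or neutrophil list numbered 6 in carboplatin AngII/PE, 3 in PBS AngII/PE, 5 in carboplatin saline and 0 in PBS saline. The summed level of the 8 endothelial markers was 154 CPM (UMIs of a gene or list per 1000000 UMIs of the summed cells) in carboplatin AngII/PE, 184 in PBS AngII/PE, 521 in carboplatin saline and 51.7 in PBS saline. In carboplatin saline 1 cell held 83.6% of those UMIs, and without it the sum was 88.8 CPM. The 6 B cell markers summed to 29.9 CPM in carboplatin AngII/PE, 37.3 in PBS AngII/PE, 308 in carboplatin saline and 36.0 in PBS saline, with 4 B-marker-rich cells in carboplatin saline. Members with at least 2 UMIs each of Xist and Y-linked RNA, as a droplet of 2 cells would give, numbered 9 in carboplatin AngII/PE, 1 in PBS AngII/PE, 1 in carboplatin saline and 0 in PBS saline. They were 6.62% of members against 2.12% of non-cycling cells in carboplatin AngII/PE and 2.17% against 1.32% in PBS AngII/PE. The shares were 2.44% against 1.23% in carboplatin saline and 0% against 0.589% in PBS saline. The part of the greater depth of members in this was not tested. The libraries shared 1 to 10 kept barcodes per pair, and no shared barcode was cycling in both libraries. With every cell that held 3 or more UMIs of those lists left out, the carboplatin to PBS share ratio was 1.98 under saline (0.917 to 4.26) and 1.49 under AngII/PE (0.914 to 2.44), so both intervals reached below 1. With the limit at 10 UMIs per 10000, chosen after the data were seen, it was 2.07 under saline (1.25 to 3.44) and 1.84 under AngII/PE (1.31 to 2.60).

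Within the members, the genes of S phase and the genes of mitosis were spread unequally over cells. Replication genes (38 genes of origin licensing and DNA synthesis) had a median of 24.9 UMIs per 10000 per cell in carboplatin AngII/PE, 9.42 in PBS AngII/PE, 19.0 in carboplatin saline and 18.3 in PBS saline, within a range of 0.818 to 103 over all members. Spindle genes (35 genes of spindle, kinetochore and cytokinesis) had a median of 41.7 UMIs per 10000 in carboplatin AngII/PE, 37.9 in PBS AngII/PE, 38.7 in carboplatin saline and 44.8 in PBS saline. Since the lists differ in genes and CPM is not per length, which content is larger in a cell is a description of these UMIs and not a phase call. Spindle content exceeded replication content in 82 of 136 members of carboplatin AngII/PE (60.3%, 51.6 to 68.6), 33 of 46 of PBS AngII/PE (71.7%, 56.5 to 84.0), 28 of 41 of carboplatin saline (68.3%, 51.9 to 81.9) and 19 of 25 of PBS saline (76.0%, 54.9 to 90.6). The difference in these shares between libraries was not tested. In non-cycling macrophages the medians were at most 4.36 for replication and 2.12 for spindle genes.

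**Figure D2:**
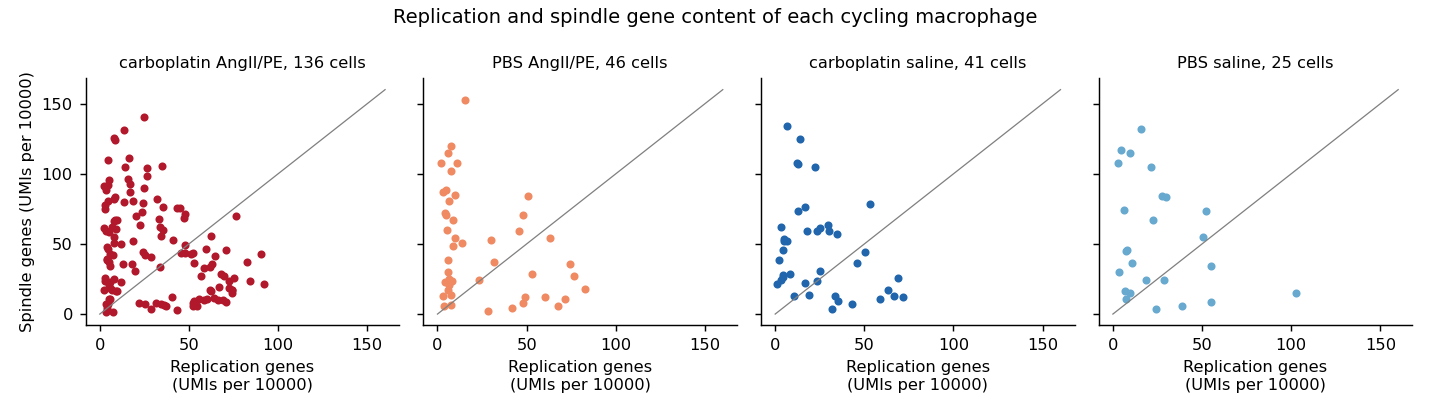
Each point is 1 cycling macrophage, placed by its replication gene content (x axis) and spindle gene content (y axis), both in UMIs per 10000, in 1 panel per library; the line marks equal content. Most points lie above the line, 82 of 136 in carboplatin AngII/PE and 19 of 25 in PBS saline, and many spindle-rich cells have little replication content.

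The levels of the cycle genes of the rule are given by library. Mki67, which encodes the Ki-67 coat protein of mitotic chromosomes, stood at 458 CPM in carboplatin AngII/PE members, 420 in PBS AngII/PE, 813 in carboplatin saline and 796 in PBS saline. Its level in non-cycling cells was 8.83 CPM in carboplatin AngII/PE, 7.74 in PBS AngII/PE, 10.5 in carboplatin saline and 7.20 in PBS saline, which describes the choice. Top2a, the topoisomerase that untangles chromosomes, was at 436 CPM in carboplatin AngII/PE, 305 in PBS AngII/PE, 583 in carboplatin saline and 409 in PBS saline. Cdk1, the kinase that starts mitosis, was at 168 CPM in carboplatin AngII/PE, 122 in PBS AngII/PE, 137 in carboplatin saline and 92.2 in PBS saline. Rrm2, a subunit of ribonucleotide reductase, was at 167 CPM in carboplatin AngII/PE, 129 in PBS AngII/PE, 71.7 in carboplatin saline and 69.7 in PBS saline. Of the 10 rule genes Mki67 was thus lower and Rrm2 higher past 1.5-fold under AngII/PE, after PBS and after carboplatin, and the median log2 ratio was -0.03 after PBS and 0.15 after carboplatin. These genes chose the cells, so nothing is read from the differences.

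Upstream sequences of 3 of the rule genes and 2 licensing genes are shown as examples of the elements known for G2/M and S phase promoters, chosen with their matches known. Each stretch is the 160 bases before the RefSeq start in the GRCm38.p6 mouse genome, read along the gene, with motif matches in capitals. The motifs were the CHR (TTTGAA or TTCGAA), the CCAAT box and E2F sites (TTTGGCGC or TTTCCCGC), searched on both strands, so capitals also mark the reverse complement of each. The second CHR form reads alike on both strands. No match overlapped another.
Cdk1 chr10:69352913-69353072 (minus strand): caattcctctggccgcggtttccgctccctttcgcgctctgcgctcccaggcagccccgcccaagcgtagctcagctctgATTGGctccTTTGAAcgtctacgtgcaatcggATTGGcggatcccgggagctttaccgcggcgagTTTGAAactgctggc
Top2a chr11:99024190-99024349 (minus strand): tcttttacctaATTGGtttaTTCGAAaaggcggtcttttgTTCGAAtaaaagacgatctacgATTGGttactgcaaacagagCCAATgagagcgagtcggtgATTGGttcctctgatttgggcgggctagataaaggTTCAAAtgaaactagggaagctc
Ube2c chr2:164769769-164769928 (plus strand): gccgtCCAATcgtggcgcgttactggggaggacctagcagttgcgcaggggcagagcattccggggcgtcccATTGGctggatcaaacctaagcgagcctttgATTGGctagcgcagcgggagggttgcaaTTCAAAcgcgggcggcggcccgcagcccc
Mcm6 chr1:128359706-128359865 (minus strand): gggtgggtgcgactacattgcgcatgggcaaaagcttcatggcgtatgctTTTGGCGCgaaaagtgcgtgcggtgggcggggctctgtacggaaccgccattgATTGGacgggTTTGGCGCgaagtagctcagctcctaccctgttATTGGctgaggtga
Mcm5 chr8:75109349-75109508 (plus strand): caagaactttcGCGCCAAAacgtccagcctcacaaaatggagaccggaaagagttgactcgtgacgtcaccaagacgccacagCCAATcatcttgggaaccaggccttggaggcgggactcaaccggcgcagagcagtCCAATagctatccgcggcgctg
The same 160 bases were searched before every RefSeq start. A CHR was in 10.5%, a CCAAT box in 25.6% and an E2F site in 0.904% of all 32851 such windows. Of the 10 rule genes 9 had a window, with a CHR in 4, a CCAAT box in 7 and an E2F site in 0. Of the 17 licensing genes 13 had windows, 15 in all, with a CHR in 1, a CCAAT box in 9 and an E2F site in 3. A match describes the letters only and says nothing of binding in these cells.

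Cycling and non-cycling macrophages were set side by side in each library, for the 6898 genes that averaged 20 CPM or more. As the cycle genes chose the cells, this is a description. The mean was taken over the cycling and non-cycling sums, so a gene low in non-cycling cells could pass only through the members. Counts of higher genes among those compared are thus in part set by this filter. Summed ratios of a list were taken without it. A gene counted as higher or lower when it differed at least 1.5-fold in the same direction in all 4 libraries. This held for 458 genes that were higher (6.64%) and 82 that were lower (1.19%), and the median log2 ratio over all genes was between 0.02 and 0.07. The gene lists were drawn up with earlier results of these libraries known.

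The S phase genes that were compared were higher in the members throughout. All 12 compared genes of the 17 that license and fire origins were higher in all 4 libraries, with a median log2 ratio of 2.41 in carboplatin AngII/PE, 2.48 in PBS AngII/PE, 2.13 in carboplatin saline and 2.61 in PBS saline. Mcm5, a subunit of the replicative helicase, was at 118 against 12.4 CPM in cycling against non-cycling cells of carboplatin AngII/PE. The pair of values was 104 against 9.68 CPM in PBS AngII/PE, 83.1 against 10.96 in carboplatin saline and 63.0 against 8.50 in PBS saline. All 18 compared genes of 21 for nucleotide supply and DNA synthesis were higher as well. Pcna, the sliding clamp of DNA polymerase, was at 252 against 63.4 CPM in carboplatin AngII/PE and 175 against 71.7 CPM in PBS saline. Tk1, thymidine kinase, was at 178 against 2.76 CPM in carboplatin AngII/PE and 108 against 2.04 CPM in PBS saline. The synthesis list summed to 6.32 times its non-cycling level in carboplatin AngII/PE, 5.89 times in PBS AngII/PE, 4.47 times in carboplatin saline and 4.45 times in PBS saline.

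Genes of mitosis showed larger ratios. All 16 compared cyclins, kinases and transcription factors of 23 were higher in all 4 libraries, with a median log2 ratio between 4.72 and 5.45 and summed ratios of 15.3 in carboplatin AngII/PE, 14.9 in PBS AngII/PE, 16.4 in carboplatin saline and 19.2 in PBS saline. Ccna2, cyclin A2, was at 145 against 0.449 CPM in carboplatin AngII/PE and 87.7 against 0.133 CPM in PBS saline. Ccnb2, a mitotic cyclin, was at 226 against 4.60 CPM in carboplatin AngII/PE, 242 against 3.37 in PBS AngII/PE, 203 against 3.39 in carboplatin saline and 182 against 2.84 in PBS saline. Of 34 compared spindle and cytokinesis genes 33 were higher in all 4 libraries, with a median log2 ratio between 5.51 and 6.26. Cenpa, the centromeric histone, was at 310 against 20.4 CPM in carboplatin AngII/PE and 261 against 15.1 CPM in PBS saline. The exception was Pttg1, securin, at 45.5 against 50.3 CPM in carboplatin AngII/PE, 28.6 against 44.8 in PBS AngII/PE, 44.0 against 36.0 in carboplatin saline and 72.0 against 36.0 in PBS saline. All 16 genes of chromatin packaging, lamina and tubulin were higher, led in level by H2afz, a histone variant, at 1653 against 432 CPM in carboplatin AngII/PE and 1158 against 290 CPM in PBS saline. Stmn1, stathmin, which takes microtubules apart, was at 1226 against 42.0 CPM in carboplatin AngII/PE and 713 against 22.0 CPM in PBS saline.

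Outside these lists, the genes that stood highest in the members by their smallest ratio were mostly of the cycle too. Esco2, which acetylates cohesin on new sister chromatids, was at 76.2 against 0.160 CPM in carboplatin AngII/PE, 51.0 against 0.153 in PBS AngII/PE, 74.3 against 0.308 in carboplatin saline and 56.2 against 0.0797 in PBS saline. Neil3, a glycosylase that can open DNA crosslinks between strands, was at 107 against 0.593 CPM in carboplatin AngII/PE, 114 against 0.383 in PBS AngII/PE, 125 against 0.548 in carboplatin saline and 162 against 0.239 in PBS saline. The others of the 15 were Hist1h3c, Pimreg, Pbk, Cdca3, Cep55, Spag5, Prr11, Melk, Cdca2, Shcbp1, Cdkn3, Lockd and Cenpm, whose smallest log2 ratios over the 4 libraries lay between 5.60 and 7.70. They include Cep55, which works at the midbody in cytokinesis, Cdkn3, a phosphatase of cyclin-dependent kinases, and Lockd, a long non-coding RNA encoded next to Cdkn1b.

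Most of the histone genes looked at singly were lower in the members of the AngII/PE libraries, though not all. The 67 Hist genes, a group chosen after their values were seen, summed to 1099 CPM in carboplatin AngII/PE members, 928 in PBS AngII/PE, 1691 in carboplatin saline and 1961 in PBS saline. Their sums in non-cycling cells were 305 CPM in carboplatin AngII/PE, 269 in PBS AngII/PE, 216 in carboplatin saline and 235 in PBS saline. Hist1h3c stood at 9.97 CPM (6.45 to 14.7) in carboplatin AngII/PE members, 7.46 (2.74 to 16.2) in PBS AngII/PE, 99.4 (78.7 to 124) in carboplatin saline and 121 (91.2 to 158) in PBS saline. It had the largest such difference of the 7 looked at singly. Hist1h2bc went the other way after carboplatin, at 119 CPM in carboplatin AngII/PE members, 88.3 in PBS AngII/PE, 39.0 in carboplatin saline and 101 in PBS saline. Hist1h1c was at 70.2 CPM in carboplatin AngII/PE members, 52.2 in PBS AngII/PE, 78.0 in carboplatin saline and 78.7 in PBS saline. Most histone messages of S phase lack a poly(A) tail, on which the capture relies. The nuclear RNA Malat1 differed between the same libraries, at 8499.8 CPM in carboplatin AngII/PE members, 9332 in PBS AngII/PE, 14279 in carboplatin saline and 16167 in PBS saline, and at 14001 CPM in non-cycling cells of carboplatin AngII/PE, 15921 of PBS AngII/PE, 23197 of carboplatin saline and 24749.9 of PBS saline. The part of RNA capture in the histone values was not tested.

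Most of the compared DNA repair genes that act on crosslinks were higher in the members whether or not the mice had had carboplatin. Of 27 Fanconi and homologous recombination genes 11 passed the level filter and 8 of these were higher in all 4 libraries, with a median log2 ratio between 2.08 and 2.69. Genes low in non-cycling cells passed the filter only through the members, which in part sets this count. Without the filter the whole list summed to 4.91 times its non-cycling level in carboplatin AngII/PE and 3.83 times in PBS AngII/PE. It was 4.82 times in carboplatin saline and 3.65 times in PBS saline. Brip1, a helicase partner of Brca1, was at 89.0 against 5.61 CPM in carboplatin AngII/PE, 72.1 against 5.49 in PBS AngII/PE, 123 against 6.16 in carboplatin saline and 108 against 4.38 in PBS saline. The list summed to 1089.6 CPM in carboplatin AngII/PE members and 858 in PBS AngII/PE members, a ratio of 1.27 (1.17 to 1.38), and to 1427 CPM in carboplatin saline and 1399 in PBS saline, a ratio of 1.02 (0.925 to 1.13).

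Genes that hold the cycle back were mixed. Of 10 compared inhibitors of 13, the INK4 members Cdkn2c and Cdkn2d and the pocket protein Rbl1 were higher in all 4 libraries. Cdkn2c was at 122 against 17.5 CPM in carboplatin AngII/PE, 99.5 against 12.8 in PBS AngII/PE, 70.5 against 17.7 in carboplatin saline and 103 against 15.3 in PBS saline. Cdkn1a, which encodes p21, was at 302 against 247 CPM in carboplatin AngII/PE, 233 against 225 in PBS AngII/PE, 371 against 216 in carboplatin saline and 522 against 249 in PBS saline. The ratio therefore passed 1.5 in both saline libraries and in neither AngII/PE library. In PBS saline 1 cell held 25.5% of the UMIs of the 20 p53 target genes. The list summed to 1192 CPM there and to 952 CPM without that cell, 1.36 times the non-cycling level. With that cell, 8 of 12 compared p53 targets were past 1.5-fold higher there and 1 lower, against 1140 and 736 of all 6898 genes. Higher and lower were 0 and 1 in carboplatin AngII/PE, 0 and 3 in PBS AngII/PE, and 1 and 2 in carboplatin saline. In the other libraries the p53 list stood at 0.978 times the non-cycling level in carboplatin AngII/PE, 0.947 in PBS AngII/PE and 1.11 in carboplatin saline. Of the G1 genes, Cdk4 was higher in all 4 libraries, at 130 against 64.3 CPM in carboplatin AngII/PE and 92.2 against 50.1 CPM in PBS saline. Ccnd3, cyclin D3, was lower, at 216 against 359 CPM in carboplatin AngII/PE and 87.7 against 253 CPM in PBS saline.

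**Figure D3:**
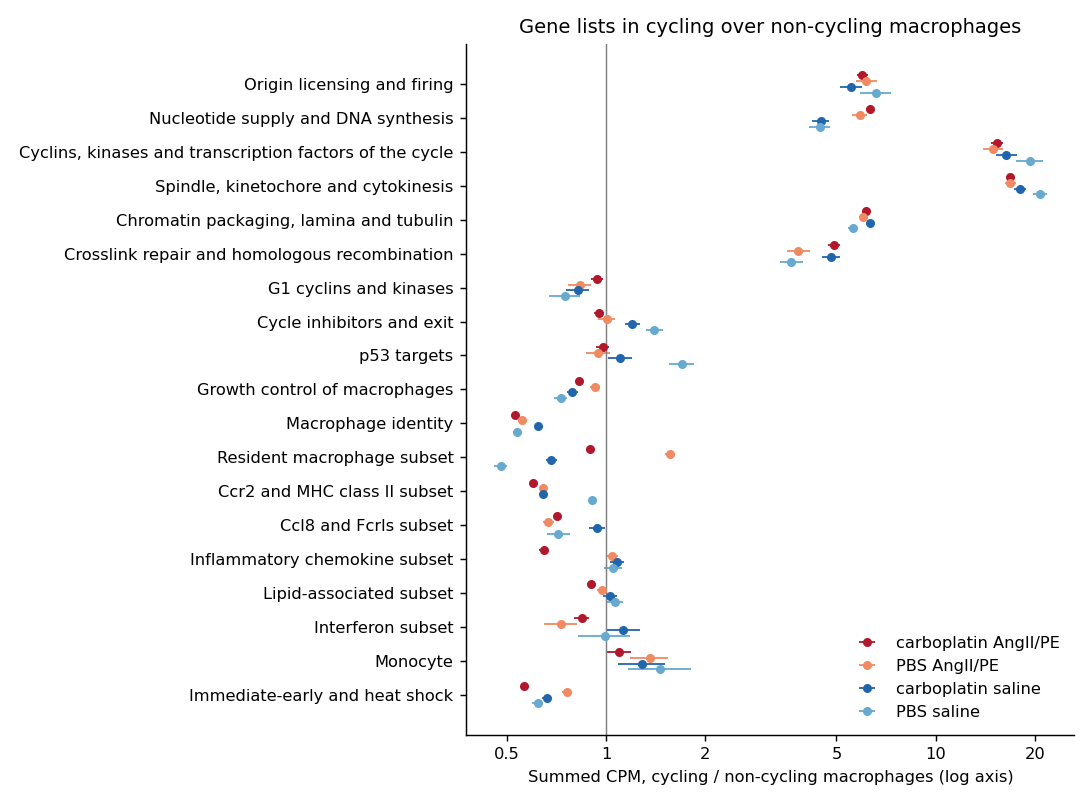
Ratio of the summed CPM of each gene list in cycling over non-cycling macrophages (x axis, log scale) for the 4 libraries (colours, order from top), with 95% intervals for counting error. The replication and spindle lists stand between the synthesis list at 4.45 and the spindle list at 20.7, both in PBS saline, the identity list lies between 0.529 and 0.624, and the resident list spreads most widely around 1 among the subset lists, from 1.56 in PBS AngII/PE to 0.479 in PBS saline.

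Several macrophage genes took a smaller share of the RNA of members. Of the 14 identity genes Lyz2, Apoe and Mertk were lower in all 4 libraries, and the median log2 ratio of the list lay between -0.46 and -0.34. Lyz2, lysozyme, was at 5109 against 9996 CPM in carboplatin AngII/PE, 5235 against 9006 in PBS AngII/PE, 4285 against 9613 in carboplatin saline and 4342 against 9132 in PBS saline. Members hold more UMIs, and per cell Lyz2 had 94.2 against 125 UMIs in carboplatin AngII/PE, 91.5 against 113 in PBS AngII/PE, 83.0 against 119 in carboplatin saline and 77.2 against 107 in PBS saline. Apoe, apolipoprotein E, was at 8511 against 20986 CPM in carboplatin AngII/PE, 9339 against 21439 in PBS AngII/PE, 3365 against 5256 in carboplatin saline and 4562 against 11103 in PBS saline. Mertk, a receptor for apoptotic cells, was at 172 against 366 CPM in carboplatin AngII/PE, 206 against 380 in PBS AngII/PE, 103 against 204 in carboplatin saline and 117 against 230 in PBS saline. Csf1r, the receptor of the growth factor that macrophages depend on, was not past 1.5-fold, at 869 against 1020 CPM in carboplatin AngII/PE, 890 against 978 in PBS AngII/PE, 652 against 805 in carboplatin saline and 634 against 877 in PBS saline. None of the 14 compared genes of macrophage growth control, Maf and Myc among them, was past 1.5-fold in all 4 libraries.

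Among the 10 genes lowest in the members by their largest ratio were Slc37a2, Adam22, Apoc2, Pparg, Cd38, Slfn5, Kdm7a, Gvin1 and Adap2os. Pparg, a nuclear receptor of lipid metabolism, was at 23.5 against 85.2 CPM in carboplatin AngII/PE, 22.4 against 86.0 in PBS AngII/PE, 35.2 against 79.3 in carboplatin saline and 27.0 against 68.0 in PBS saline. Slc37a2, a sugar phosphate transporter of macrophages, was at 30.3 against 77.2 CPM in carboplatin AngII/PE, 17.4 against 69.5 in PBS AngII/PE, 6.29 against 36.3 in carboplatin saline and 4.50 against 35.7 in PBS saline. In the lipid-associated list Cd63 was lower and Lgals1, galectin-1, higher in all 4 libraries. Lgals1 was at 1341 against 697 CPM in carboplatin AngII/PE, 1308 against 575 in PBS AngII/PE, 736 against 487 in carboplatin saline and 783 against 500.3 in PBS saline. The immediate-early and heat shock list, whose genes respond to cell handling, summed to 0.564 times the non-cycling level in carboplatin AngII/PE, 0.761 in PBS AngII/PE, 0.661 in carboplatin saline and 0.621 in PBS saline.

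The subset markers carried by members were compared after thinning every cell to 5000 UMIs, because a deeper cell shows more markers. This left out 9 cycling and 828 non-cycling cells of carboplatin AngII/PE, 5 and 530 of PBS AngII/PE, 0 and 606 of carboplatin saline, and 2 and 722 of PBS saline. Shares in endothelial cells of the same libraries are given as a background. It can hold free RNA and transcripts of the endothelial cells themselves, which were not told apart. Since these cells were chosen below the C1q limit, the shares can also understate free RNA. Their median depth was 11155 UMIs in carboplatin AngII/PE, 10368 in PBS AngII/PE, 7297 in carboplatin saline and 6574 in PBS saline before thinning, which left out 27 of 270, 44 of 279, 163 of 491 and 162 of 485 cells.

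Ccr2 was found in a like share of members in every library. It was present in 43.3% of members of carboplatin AngII/PE (34.5 to 52.4), 46.3% of PBS AngII/PE (30.7 to 62.6), 46.3% of carboplatin saline (30.7 to 62.6) and 43.5% of PBS saline (23.2 to 65.5). Among non-cycling cells the share was 42.3% in carboplatin AngII/PE, 41.3% in PBS AngII/PE, 45.3% in carboplatin saline and 21.3% (19.7 to 23.0) in PBS saline. The members and the other macrophages thus stood apart in PBS saline, where 10 of 23 thinned members held Ccr2. They also differed in sex there. Of the PBS saline members with a sex call 14 of 17 were female, 82.4% (56.6 to 96.2), against 48.5% of non-cycling cells. The part of sex or of single mice in the subset comparisons of this library was not tested. The endothelial background was 3.70% in carboplatin AngII/PE, 4.26% in PBS AngII/PE, 4.27% in carboplatin saline and 2.17% in PBS saline. Unthinned, the share of members with Ccr2 was 61.0% in carboplatin AngII/PE, 56.5% in PBS AngII/PE, 56.1% in carboplatin saline and 44.0% in PBS saline. As a level, Ccr2 in PBS saline was at 452 CPM (392 to 519) in members and 166 CPM in non-cycling cells, with 1 cell holding 19.9% of the member UMIs. Without cells rich in other markers or of mixed sex, the thinned share was 45.2% in carboplatin AngII/PE, 50.0% in PBS AngII/PE, 50.0% in carboplatin saline and 43.5% in PBS saline.

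Resident markers in members differed by marker and library. The resident list summed to 0.895 times its non-cycling level in carboplatin AngII/PE and 1.56 times in PBS AngII/PE. The sum was 0.683 times in carboplatin saline and 0.479 times in PBS saline. In PBS saline 10 of 12 compared genes were past 1.5-fold lower in members and 0 higher, against 736 lower and 1140 higher of all 6898 genes. In PBS AngII/PE 1 was lower and 6 higher, against 875 and 1052 of all genes. Lower and higher were 5 and 1 in carboplatin AngII/PE, against 568 and 916 of all genes, and 7 and 0 in carboplatin saline, against 646 and 977. In PBS saline 30.4% of thinned members (13.2 to 52.9) held a resident marker without Ccr2, against 60.9% of non-cycling cells (59.0 to 62.8). Timd4, a receptor for phosphatidylserine, had a UMI in 0 of 127 thinned members of carboplatin AngII/PE, 2 of 41 of PBS AngII/PE, 0 of 41 of carboplatin saline and 4 of 23 of PBS saline. The 0 of 127 allows a share of up to 2.86% and the 0 of 41 up to 8.60% by the exact interval. This limits cells with a UMI at 5000 UMIs, not cells that express the gene. In non-cycling cells Timd4 was found in 0.0961% in carboplatin AngII/PE, 1.16% in PBS AngII/PE, 2.17% in carboplatin saline and 28.6% in PBS saline. Unthinned, Timd4 was in 0% of members of carboplatin AngII/PE, 6.52% of PBS AngII/PE, 2.44% of carboplatin saline and 6 of 25 of PBS saline. Cd163, a scavenger receptor for haemoglobin, was found in 7.87% of members of carboplatin AngII/PE, 12.2% of PBS AngII/PE, 4.88% of carboplatin saline and 39.1% of PBS saline (19.7 to 61.5). Non-cycling cells held Cd163 in 7.18% in carboplatin AngII/PE, 10.4% in PBS AngII/PE, 11.4% in carboplatin saline and 51.4% in PBS saline. Unthinned, Cd163 was in 12.5% of members of carboplatin AngII/PE, 17.4% of PBS AngII/PE, 14.6% of carboplatin saline and 44.0% of PBS saline. Folr2, folate receptor beta, was found in 21.3% of members of carboplatin AngII/PE, 14.6% of PBS AngII/PE, 22.0% of carboplatin saline (10.6 to 37.6) and 39.1% of PBS saline. Non-cycling cells held Folr2 in 22.7% in carboplatin AngII/PE, 13.2% in PBS AngII/PE, 37.2% in carboplatin saline and 46.9% in PBS saline. Unthinned, Folr2 was in 34.6% of members of carboplatin AngII/PE, 32.6% of PBS AngII/PE, 41.5% of carboplatin saline and 44.0% of PBS saline. Lyve1, which binds hyaluronan, had a UMI in 6.30% of members of carboplatin AngII/PE, 17.1% of PBS AngII/PE (7.15 to 32.1), 22.0% of carboplatin saline and 26.1% of PBS saline. Non-cycling cells held Lyve1 in 4.56% in carboplatin AngII/PE, 3.45% in PBS AngII/PE, 24.4% in carboplatin saline and 41.0% in PBS saline. Unthinned, Lyve1 was in 10.3% of members of carboplatin AngII/PE, 23.9% of PBS AngII/PE, 26.8% of carboplatin saline and 7 of 25 of PBS saline. Endothelial cells held Lyve1 in 1.23% to 3.10% and Folr2 in 0.426% to 5.57% of cells over the 4 libraries. The levels rested on few cells: in PBS AngII/PE 1 member held 36 of 84 Lyve1 UMIs and 11 of 13 Timd4 UMIs, and in PBS saline 1 member held 72 of 144 Lyve1 UMIs.

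H2-Aa, the alpha chain of an MHC class II molecule, had a UMI in 60.6% of thinned members of carboplatin AngII/PE, 56.1% of PBS AngII/PE, 100% of carboplatin saline and 91.3% of PBS saline. The shares in non-cycling cells were 70.1% in carboplatin AngII/PE, 68.8% in PBS AngII/PE, 98.6% in carboplatin saline and 95.5% in PBS saline. The endothelial background was high for this abundant transcript, from 29.8% to 54.6%, so its level is the better guide. H2-Aa was at 1605 against 3017 CPM in members against non-cycling cells of carboplatin AngII/PE, 2092 against 3536 in PBS AngII/PE, 5248 against 8644 in carboplatin saline and 5601 against 6830 in PBS saline. Unthinned, H2-Aa was in 86.0% of members of carboplatin AngII/PE, 89.1% of PBS AngII/PE, 100% of carboplatin saline and 96.0% of PBS saline. Both AngII/PE libraries were low and both saline libraries high, in members as in the rest.

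**Figure D4:**
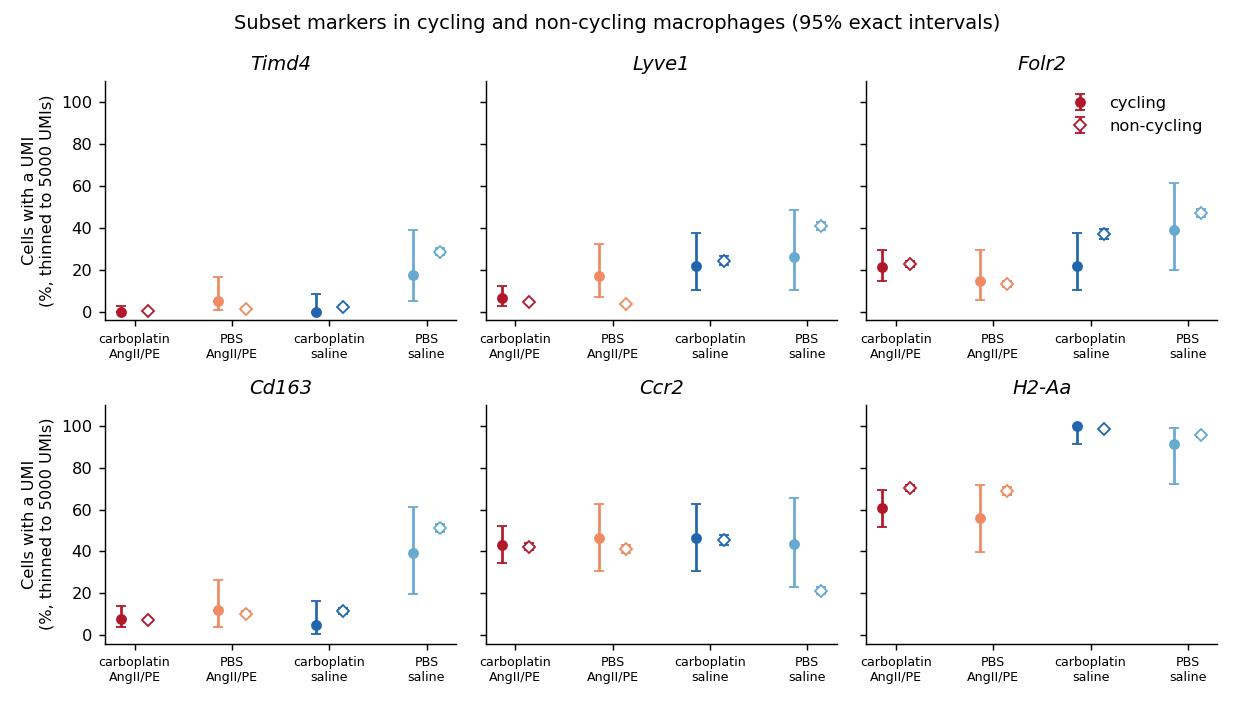
Percentage of cells with a UMI of 6 subset markers after thinning to 5000 UMIs (y axis) in each library (x axis), for cycling (filled circles) and non-cycling macrophages (open diamonds), with exact 95% intervals. Ccr2 in cycling cells stays between 43.3% and 46.3% while its non-cycling share is 21.3% in PBS saline, and Timd4 and Cd163 are most frequent in PBS saline in both kinds of cell.

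The same question was asked the other way round, as the cycling share within each marker combination. A cell counted as resident when it held Timd4, Lyve1, Folr2 or Cd163 after thinning. Endothelial cells met this in 5.35% in carboplatin AngII/PE, 2.55% in PBS AngII/PE, 6.40% in carboplatin saline and 12.4% in PBS saline. This background thus differed between libraries, and its part in the shares was not tested. In PBS saline 7 of 1532 cells with resident markers and no Ccr2 were cycling, 0.457% (0.184 to 0.939), against 4 of 314 with Ccr2 alone, 1.27% (0.348 to 3.23), and 6 of 230 with both, 2.61% (0.963 to 5.59). In carboplatin saline the cycling shares were 1.24% of resident-only cells (0.4995 to 2.54), 2.44% of Ccr2-only cells (1.30 to 4.13) and 2.15% of cells with both. In PBS AngII/PE they were 1.97% of resident-only cells (0.854 to 3.85), 1.87% of Ccr2-only cells (1.11 to 2.94) and 0.826% of cells with both. In carboplatin AngII/PE they were 3.05% of resident-only cells (2.02 to 4.41), 3.22% of Ccr2-only cells (2.39 to 4.24) and 2.01% of cells with both. In cells without any of the 5 markers the cycling share was 2.83% in carboplatin AngII/PE (2.07 to 3.77) and 1.24% in PBS AngII/PE (0.678 to 2.07). It was 3.61% in carboplatin saline (2.03 to 5.88), above the other combinations there, and 1.33% in PBS saline (0.490 to 2.87), near the Ccr2-only share. Members without any of the 5 markers formed 45 of 127 thinned members in carboplatin AngII/PE, 14 of 41 in PBS AngII/PE, 15 of 41 in carboplatin saline and 6 of 23 in PBS saline.

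Spn, the surface mucin CD43 that is also high on non-classical monocytes, was the one monocyte-list gene higher in members of all 4 libraries. It was at 80.2 CPM (69.5 to 92.1) against 24.5 in carboplatin AngII/PE, 65.9 (49.4 to 86.2) against 28.02 in PBS AngII/PE, 99.4 (78.7 to 124) against 25.8 in carboplatin saline and 78.7 (54.8 to 109) against 13.97 in PBS saline. Thinned shares with a Spn UMI were 30.7% of members against 10.2% of non-cycling cells in carboplatin AngII/PE, 22.0% against 10.96% in PBS AngII/PE, 34.1% against 10.3% in carboplatin saline and 39.1% against 6.07% in PBS saline. Unthinned, Spn was in 61.0% of members of carboplatin AngII/PE, 52.2% of PBS AngII/PE, 58.5% of carboplatin saline and 72.0% of PBS saline. Endothelial cells held it in at most 1.24%. Ace and Treml4, also non-classical monocyte genes of the list, were at most at 13.2 CPM in the members of a library and were not compared. Of the 3 genes of the list that were compared, 1 was past 1.5-fold lower in members in each library. None was lower in all 4. Over all 6898 genes 568 to 875 were lower in a library. Of the list's 10 genes 1 to 5 were at 0 in the members of a library.

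Within the members, the 3974 genes that averaged 50 CPM or more were compared between libraries. The contrasts share libraries with each other. Carboplatin against PBS under saline put 190 genes at least 1.5-fold higher (4.78%) and 297 lower (7.47%). Clec12a, an inhibitory lectin receptor of myeloid cells, was at 276 CPM in carboplatin saline and 121 in PBS saline, 2.27 times (1.68 to 3.12), against 209 and 142 CPM in non-cycling cells. H2-Q6, a non-classical MHC class I gene whose reads may be shared with its close paralogs, was at 244 CPM in carboplatin saline and 126 in PBS saline, and at 78.6 and 40.1 CPM in non-cycling cells. Itga6, Ftl1-ps1, Cadm1, Entpd1, Cndp2 and Limd2 were the others at the top, at 1.90 to 2.24 times. Hpgd, which breaks down prostaglandins, was at 177 CPM in carboplatin saline and 380 in PBS saline, and at 301 and 607 CPM in non-cycling cells. S100a10, an annexin partner, was at 390 CPM in carboplatin saline and 812 in PBS saline, but at 261 and 309 CPM in non-cycling cells. Of the cycle lists, none of the compared licensing, spindle or chromatin genes was past 1.5-fold in this contrast, against 1 higher of 13 synthesis genes and 1 higher and 1 lower of 8 cyclins, kinases and factors. Of 6 compared repair genes 1 was higher. Of 6 compared p53 targets 3 were lower, and the list summed to 743 CPM in carboplatin saline and 1192 in PBS saline, 0.623 times (0.553 to 0.702), with the 1 cell of PBS saline described above in the sum.

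Carboplatin against PBS under AngII/PE put fewer genes past 1.5-fold, 101 higher (2.54%) and 102 lower (2.57%), than under saline, between 2 libraries with more members. With no upper limit on UMIs, which adds members, the counts came close to each other, at 48 higher and 67 lower under AngII/PE and 57 higher and 115 lower under saline. Genes of the interferon list were among the higher. All 3 compared genes of the 12 in the interferon list were higher, and the list summed to 575 CPM in carboplatin AngII/PE and 368 in PBS AngII/PE, 1.56 times (1.38 to 1.77). The median log2 ratio of the 3 genes was 0.86, against 0.02 over all genes compared. In carboplatin AngII/PE 1 cell held 10.6% of the list's UMIs, and in PBS AngII/PE 1 cell held 29.4%. Without these cells the sums were 518 and 264 CPM. Irf7, a transcription factor of the interferon response, was at 149 CPM in carboplatin AngII/PE and 69.6 in PBS AngII/PE, and at 159 and 108 CPM in non-cycling cells. Irf1, outside the list, was among the lower genes, at 102 CPM in carboplatin AngII/PE and 192 in PBS AngII/PE, 0.531 times (0.433 to 0.653). H2-T23, an MHC class I gene, was at 253 CPM in carboplatin AngII/PE and 137 in PBS AngII/PE. Under saline the interferon list summed to 359 CPM in carboplatin and 279 in PBS members, 1.29 times (1.04 to 1.60). Early-response genes were among the lower. Socs3, a feedback inhibitor of cytokine signals, was at 105 CPM in carboplatin AngII/PE and 269 in PBS AngII/PE, 0.392 times (0.326 to 0.472), and at 259 and 338 CPM in non-cycling cells. Cxcl2, a neutrophil-attracting chemokine, was at 357 CPM in carboplatin AngII/PE and 883 in PBS AngII/PE, and at 602 and 623 CPM in non-cycling cells. Egr1 was at 123 CPM in carboplatin AngII/PE and 264 in PBS AngII/PE. The handling list, which holds Egr1, summed to 3464 CPM in carboplatin AngII/PE and 4462 in PBS AngII/PE, and the part of cell handling in these genes was not tested.

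AngII/PE against saline put more genes past 1.5-fold in members than carboplatin against PBS did, 485 higher (12.2%) and 691 lower (17.4%) after PBS, and 466 higher (11.7%) and 455 lower (11.4%) after carboplatin. Most Ccl8 and Fcrls subset genes were higher in members of the AngII/PE hearts than in members of the saline hearts. Of 9 compared genes of that list 7 were higher after PBS and 6 after carboplatin, with sums of 2.16 times saline after PBS and 2.17 times after carboplatin. Within the AngII/PE libraries the list was lower in members, at 0.709 times its non-cycling level in carboplatin AngII/PE and 0.669 times in PBS AngII/PE. The median log2 ratio of the list to saline was 1.08 both after PBS and after carboplatin, against -0.01 after PBS and 0.03 after carboplatin over all genes compared. Trem2, a lipid-sensing receptor, was at 367 CPM in PBS AngII/PE and 101 in PBS saline, and at 396 CPM in carboplatin AngII/PE and 106 in carboplatin saline. Ms4a7, a membrane protein of macrophages, was at 679 CPM in PBS AngII/PE and 205 in PBS saline, and at 993 CPM in carboplatin AngII/PE and 267 in carboplatin saline. Spp1 and Ctsd belong to the lipid-associated list instead. Spp1, osteopontin, was at 219 CPM in PBS AngII/PE and 69.7 in PBS saline, and at 238 CPM in carboplatin AngII/PE and 36.5 in carboplatin saline, 6.52 times (4.49 to 9.81). In PBS saline 1 member held 51.6% of the Spp1 UMIs. Ctsd, the lysosomal protease cathepsin D, was at 627 CPM in PBS AngII/PE and 189 in PBS saline, and at 782 CPM in carboplatin AngII/PE and 171 in carboplatin saline. Each of these 4 genes was also higher under AngII/PE in non-cycling cells, such as Ms4a7 at 1595 CPM in PBS AngII/PE and 302 in PBS saline.

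Most genes of the Ccr2 and MHC class II list went the other way. Of its 10 compared genes 9 were lower and 1 higher under AngII/PE after PBS, and 8 were lower and 0 higher after carboplatin. The share lower over all compared genes was 17.4% after PBS and 11.4% after carboplatin. The list summed to 0.405 times saline after PBS (0.395 to 0.415) and 0.347 times after carboplatin (0.341 to 0.353). In PBS AngII/PE 1 cell held 20.7% of the list's UMIs. The median log2 ratio was -1.34 after PBS and -1.51 after carboplatin. Cd74, the invariant chain, was at 6590 CPM in PBS AngII/PE and 16413 in PBS saline, and at 5147 CPM in carboplatin AngII/PE and 14978 in carboplatin saline. Ciita, the activator of MHC class II genes, was at 24.9 CPM in PBS AngII/PE and 137 in PBS saline, and at 36.7 CPM in carboplatin AngII/PE and 181 in carboplatin saline. Ccr2 itself was at 271 CPM in PBS AngII/PE and 452 in PBS saline, and at 279 CPM in carboplatin AngII/PE and 288 in carboplatin saline. Igf1, a growth factor made by resident macrophages, was at 75.9 CPM in PBS AngII/PE and 234 in PBS saline, and at 68.6 CPM in carboplatin AngII/PE and 135 in carboplatin saline. Other genes at the foot of the ranking were Dst and Cep112 in both contrasts, Plxdc2, Mob3b, Mir99ahg, Fam49a and H2-Ab1 after PBS, and Cadm1, Agmo, H2-Eb1, Nlrp1b, Mgl2 and H2-Aa after carboplatin.

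**Figure D5:**
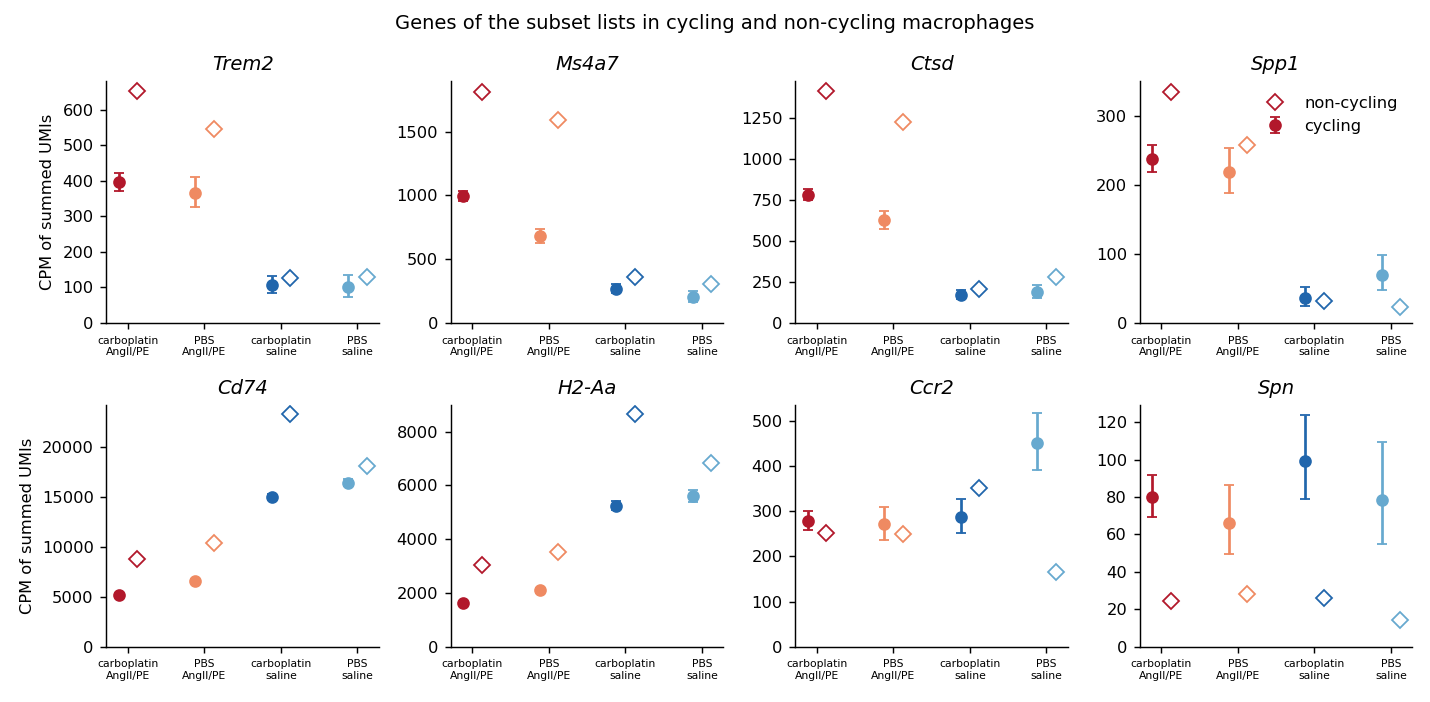
Level in CPM of the summed UMIs (y axis, from 0) of 8 subset genes in cycling (filled circles, 95% intervals for counting error) and non-cycling macrophages (open diamonds) of the 4 libraries (x axis). Trem2, Ms4a7, Ctsd and Spp1 are higher in both AngII/PE libraries, Cd74 and H2-Aa are higher in both saline libraries, and Spn is higher in cycling cells of all 4.

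Sums of the cycle lists were also set side by side. The spindle list summed to 0.858 times saline under AngII/PE after PBS (0.812 to 0.907) and 0.927 times after carboplatin (0.893 to 0.964). Of its 31 compared genes 8 were past 1.5-fold lower and 1 higher after PBS, and 2 lower and 0 higher after carboplatin. The share lower over all compared genes was 17.4% after PBS and 11.4% after carboplatin. The licensing list summed to 1.22 times saline after PBS (1.08 to 1.39) and 1.29 times after carboplatin (1.19 to 1.40). For carboplatin against PBS the spindle list stood at 0.947 times under saline (0.897 to 1.00) and 1.02 times under AngII/PE (0.984 to 1.07), and the licensing list at 1.06 (0.932 to 1.20) and 1.11 times (1.03 to 1.20). The repair list summed to 0.614 times saline under AngII/PE after PBS (0.550 to 0.685) and 0.763 times after carboplatin (0.712 to 0.819). It was lower under AngII/PE in non-cycling cells too, at 224 CPM in PBS AngII/PE and 384 in PBS saline. The values were 222 CPM in carboplatin AngII/PE and 296 in carboplatin saline. The cycle inhibitors summed to 0.610 times saline under AngII/PE after PBS (0.561 to 0.663) and 0.707 times after carboplatin (0.665 to 0.751).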

How the data were processed

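Single-cell libraries of sorted mouse heart phagocytes were read from the deposited raw count matrices, which hold whole UMI counts per gene and barcode without normalization. Per the file headers they were made with Cell Ranger 7.1.0, whereas the labels' protocols name version 3, the mm10 transcriptome, Seurat 3.2.3 and kit versions 3.1 and 1, and the submitters' processing notes name Seurat 4. The deposited barcodes numbered 8012, 5997, 7049 and 6910 for carboplatin AngII/PE, PBS AngII/PE, carboplatin saline and PBS saline, of which 5669, 3849, 3484 and 4310 passed the limits on mitochondrial share, UMIs and genes. The members, their rule and the gene lists were chosen with earlier results of these data known. The rule, not clustering, set the cells, and no doublet caller was used. Kit chemistry and intron counting are not settled by the sources used here, and either could change levels of nuclear RNA.

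UMIs were summed per library over cycling and over non-cycling cells and divided by the total (CPM). Cycling sums held 2506424, 804135, 794566 and 444720 UMIs in the order above. Shares carry exact Clopper-Pearson 95% intervals, sums exact Poisson intervals, ratios of CPM exact conditional binomial intervals and ratios of shares log-normal intervals. With 1 library per group no test was possible, and a gene was called by a ratio of 1.5. Genes needed a mean of 20 CPM for cycling against non-cycling and 50 CPM between libraries. Named outside the lists were the 15 highest and 10 lowest genes by the least extreme of the 4 ratios, and per contrast the 8 highest and 8 lowest with a mean of 100 CPM, present in 10% of members of the higher library with at most 20% of UMIs in 1 cell. Sex-linked, mitochondrial, ribosomal and unnamed genes and markers of other cells were not eligible. A few genes that the rule or lists would name are not reported here. Subset shares used cells thinned to 5000 UMIs with a fixed seed. The interval calculations were tested on simulated data. Promoter stretches came from RefSeq (GRCm38.p6). Python 3.11.15, numpy 2.4.6, scipy 1.17.1, pandas 2.3.3 and matplotlib 3.10.9 were used. Other limits on cycle genes, C1q, genes, UMIs, depth, sex and other cells' markers were tried.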

Additional observations from a re-analysis of the deposited data

Results flagged for a closer look

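Barcodes with 30000 UMIs or more lie outside the filters and entered no comparison above, yet many of those that passed the C1q limit carried at least 5 of the 10 cycle genes. The share was 24.5% in carboplatin AngII/PE (91 of 371, 20.2 to 29.2), 15.3% in PBS AngII/PE (24 of 157, 10.0 to 21.9), 11.8% in carboplatin saline (37 of 313, 8.46 to 15.9) and 11.3% in PBS saline (24 of 213, 7.35 to 16.3). Within the filters the share was 2.65% in carboplatin AngII/PE, 1.46% in PBS AngII/PE, 1.71% in carboplatin saline and 0.769% in PBS saline. These 176 barcodes compare with 248 members. Whether they are single cells or droplets of more than 1 cell was not tested.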

How the results depend on the processing

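The 4 ratios of cycling shares stayed above 1 under all 10 alternatives tried for each, and 36 of those 40 values moved by less than the counting interval of the reported ratio. The exceptions were split by sex call: for carboplatin to PBS under saline female-called cells gave 1.08 and male-called cells 9.98, and for AngII/PE to saline after PBS female-called cells gave 1.15 and male-called cells 5.60. Several intervals reached below 1. Leaving out cells with 3 or more UMIs of another type did so for carboplatin to PBS under saline at 1.98 (0.917 to 4.26) and under AngII/PE at 1.49 (0.914 to 2.44). For AngII/PE to saline after PBS it held for 7 of 10 cycle genes at 1.74 (0.938 to 3.22) and thinned cells at 1.93 (0.993 to 3.74). For AngII/PE to saline after carboplatin it held for C1q at 30 UMIs per 10000 at 1.31 (0.917 to 1.88), thinned cells at 1.34 (0.859 to 2.09) and male-called cells at 1.12 (0.686 to 1.82). Female-called cells did so for all 4 ratios. Leaving out the upper limit on UMIs and genes and leaving out cells with 10 UMIs per 10000 of other markers were added after the data were seen. Counts of genes past 1.5-fold depended on the level filter (1986 genes compared with a minimum of 100 CPM, 11186 with none). For carboplatin against PBS the share of compared genes moved too, from 2.92% with 100 CPM to 15.9% with none for higher genes under saline and from 1.26% to 11.4% under AngII/PE. With 100 CPM they were 58 higher and 99 lower for carboplatin against PBS under saline, 25 and 39 under AngII/PE, 250 and 335 for AngII/PE against saline after PBS, and 220 and 218 after carboplatin. With no minimum they were 1776 and 2185 for carboplatin against PBS under saline, 1276 and 1301 under AngII/PE, 2114 and 2784 for AngII/PE against saline after PBS, and 1881 and 2143 after carboplatin. With no upper limit on UMIs, which adds members, they were 57 and 115 for carboplatin against PBS under saline, 48 and 67 under AngII/PE, and 246 and 415 for AngII/PE against saline after PBS. Averaging each cell's CPM gave 238 and 175 for carboplatin against PBS under AngII/PE. For cycling against non-cycling cells, 100 CPM gave 97 higher and 34 lower genes and averaging cells gave 142 lower; the causes were not tested. No paired analysis was possible because each group was 1 library. With 25 members in PBS saline, 23 after thinning, the interval of the Ccr2 share there ran from 23.2% to 65.5%.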
